A study of Mus musculus with 37 samples.

Results

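Mammary glands of female BALB/c mice that had received 30 cGy of silicon ions were compared with glands that had received 100 cGy of gamma rays, 4 and 12 weeks after exposure. These were 12 of the 37 arrays of the series, chosen by title: 3 arrays of 30 cGy Si and 3 of 100 cGy gamma at week 4, and 3 of each at week 12. The silicon ions had an energy of 350 MeV/amu, and all mice were exposed at 10 weeks of age. The series also held 10 cGy Si, sham-irradiated mice and a first collection at week 1. Each mouse had been cleared of the inguinal gland on one side earlier, and RNA came from the intact gland of the other side. Mice of weeks 4 and 12 had been moved back from the irradiation site before collection. Dose and type of radiation differ together between these groups, so an effect of either cannot be told apart from the other. The labels number the replicates without stating whether each is a separate mouse, so the p-values rest on a spread between samples that could be technical.

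Silicon ions are densely ionizing (high linear energy transfer, LET): they leave clustered damage along each track. Gamma rays ionize sparsely and spread their energy more evenly over the tissue. The gland at this age is a branched tree of luminal and basal epithelium in a fat pad with vessels, fibroblasts and immune cells, and the inguinal fat pad also holds a lymph node.

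Markers of the tissue were present. All 7 measured luminal and all 6 basal epithelial markers lay above the expression filter, as did 6 of 6 white adipocyte, 4 of 4 fibroblast, 4 of 4 endothelial and 4 of 4 macrophage markers, while 1 of 3 skin markers did. Correlations between the 12 arrays over all 35556 probe sets ran from 0.973 to 0.987. The arrays did not hold equal amounts of lymph node or muscle RNA. A lymph node stroma score, the mean log2 deviation of its 8 tested genes from their means over 37 arrays, was above 1 in gamma week 4 replicates 1 and 3, Si week 4 replicate 3 and gamma week 12 replicate 1. A skeletal muscle score was 2.69 in gamma week 12 replicate 2 and at most 0.61 in the other 11 arrays. In such bulk tissue, fewer cells of a type and less RNA per cell cannot be told apart.

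For the mean of the differences within week 4 and within week 12, 0 of 13174 genes passed limma's test after Benjamini-Hochberg adjustment. The smallest adjusted p was 0.0891. An unadjusted p under 0.05 was reached by 1504 genes (11.4% of those tested), 804 of them higher after Si (6.1%) and 700 lower (5.31%). Without Si week 12 replicate 3 this count was 1002. At week 4, 1 gene passed (0.00759%), and 1053 genes reached the unadjusted threshold (7.99%), 521 higher (3.95%) and 532 lower (4.04%). That count was 549 without gamma week 4 replicate 3 and 533 without Si week 4 replicate 2. At week 12, 0 genes passed and 610 reached the unadjusted threshold (4.63%), 318 higher (2.41%) and 292 lower (2.22%); it was 921 without Si week 12 replicate 1 and 318 without replicate 3. The test of whether the difference between the radiations changed from week 4 to week 12 called 0 genes, with 296 at the unadjusted threshold (2.25%). Across the 13174 genes, the differences of the 2 weeks had a Pearson r of 0.352 and a Spearman rho of 0.397, from separate arrays, as a description across genes that are not independent.

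The gene that passed was Scin, which encodes scinderin, a calcium-dependent protein that severs actin filaments. At week 4 its log2 expression was 5.38, 5.33 and 6.13 in the Si arrays and 4.53, 4.40 and 4.58 in the gamma arrays. All 3 Si arrays lay above all 3 gamma arrays and also above the sham arrays of that week, which ran from 4.60 to 4.96. The difference was 1.11 ± 0.19 (log2, SE), a 2.15-fold higher level after Si, with an adjusted p of 0.0274. At week 12 the Si arrays had 4.92, 4.91 and 5.04 and the gamma arrays 5.20, 4.61 and 5.09. The groups overlapped there, with a difference of -0.01 ± 0.19. The change from week 4 to week 12 was -1.12 ± 0.26 with an adjusted p of 1.00 in limma, so a difference between the weeks is not shown. The call at week 4 was lost when some single arrays were left out. Without Si week 4 replicate 3 the difference was 0.85 and limma's adjusted p 0.310. Without gamma week 4 replicate 1, 2 or 3 the difference was 1.12, 1.05 or 1.15, and the adjusted p 0.164, 0.321 or 0.126. The call was kept without Si replicate 1 (1.22, adjusted p 0.0257) and without Si replicate 2 (1.25, adjusted p 0.0187).

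Other genes with small p at week 4 did not pass. Agxt2, a mitochondrial aminotransferase, had 5.53, 5.87 and 4.97 after Si and 4.42, 4.12 and 4.12 after gamma. All Si arrays were higher, but at week 12 the values overlapped, with a difference of 0.11 ± 0.23. Its week 4 difference was 1.24 ± 0.23 with an adjusted p of 0.0858 in limma. Without Si week 4 replicate 3 that p was 0.0248 and the difference 1.48. The gamma values of 4.12 lay close to the expression filter of log2 4.04. Reg3g, an antibacterial lectin of epithelia, differed by 1.37 ± 0.31 (adjusted p 0.28), and by 1.78 without Si replicate 1, where it passed with an adjusted p of 0.0257. Its value in gamma week 4 replicate 2, 3.50, lay below that filter, and the next lowest gamma value of either week was 4.21. Gsta3, a glutathione transferase, differed by 0.80 ± 0.19, Nav3, a microtubule-binding protein, by 0.59 ± 0.12, and Dusp22, a phosphatase, by 0.44 ± 0.10. On the lower side were Zim1, an imprinted zinc finger gene (-0.73 ± 0.18 over both weeks), Banp, a nuclear matrix protein that binds methylation-free CpG motifs, at -0.59 ± 0.14, and Mamdc4 at -0.56 ± 0.14. Slc12a7, a potassium-chloride cotransporter, was at -0.53 ± 0.13, the mitochondrial carrier Slc25a40 at -0.53 ± 0.12 and Zfp768 at -0.46 ± 0.10.

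**Figure D1:**
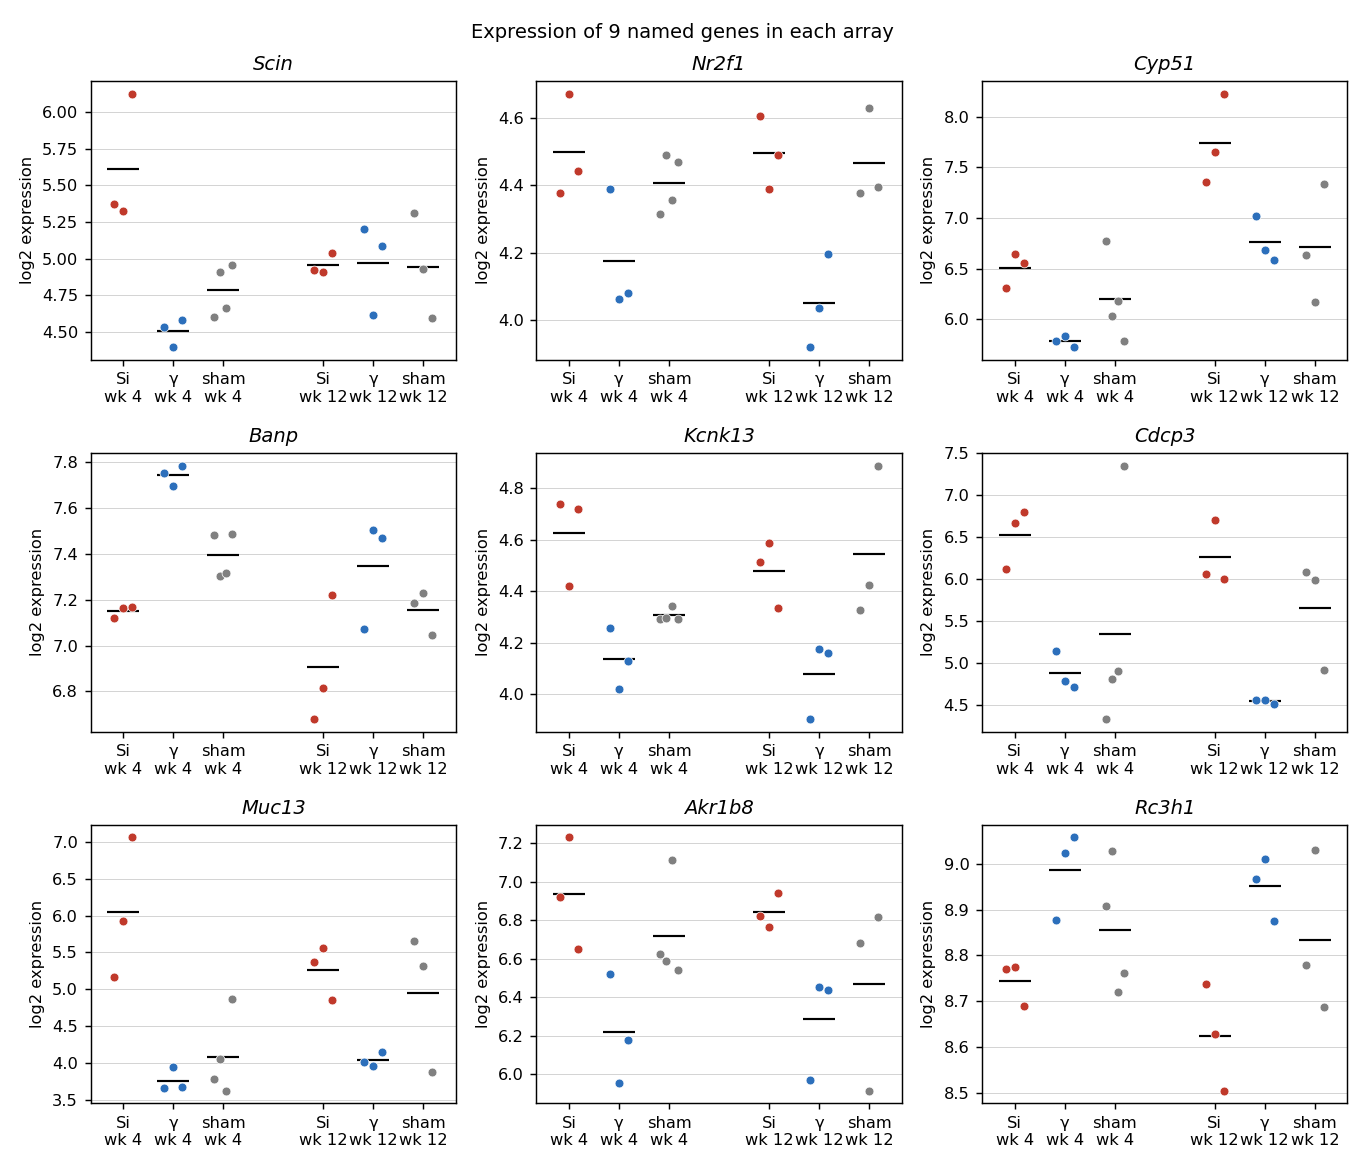
Log2 expression of 9 named genes in each array of 30 cGy Si (red), 100 cGy gamma (blue) and sham (grey) at weeks 4 and 12, with a bar at each group's mean. Scin stands apart in Si at week 4 and overlaps at week 12, while Kcnk13, Cdcp3, Muc13 and Akr1b8 are higher in all 6 Si arrays than in all 6 gamma arrays and Rc3h1 is lower.

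Over both weeks, the 3 smallest adjusted p-values were 0.0891 each, for Nr2f1, Cyp51 and Banp. Nr2f1 encodes an orphan nuclear receptor. It had 4.38, 4.67 and 4.44 in the Si arrays of week 4 against 4.39, 4.06 and 4.08 after gamma, and at week 12 4.61, 4.39 and 4.49 against a gamma mean of 4.05 (SD 0.14). The groups overlapped by a single array at week 4 and were apart at week 12. The gamma mean of week 12, and the gamma values of 4.06 and 4.08 at week 4, were close to the expression filter of log2 4.04. The pooled difference was 0.38 ± 0.07, and it passed without gamma week 4 replicate 1, with an adjusted p of 0.0137. Beside sham it lay at 0.06 ± 0.07 after Si and -0.32 ± 0.07 after gamma; both values share the sham arrays.

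Banp had 7.12, 7.16 and 7.17 after Si and 7.75, 7.70 and 7.79 after gamma at week 4. At week 12 it had 6.68, 6.82 and 7.22 against 7.07, 7.51 and 7.47. The week 4 arrays were apart, and at week 12 Si replicate 3 overlapped with gamma replicate 1. Its pooled difference was -0.52 ± 0.10, and it passed without Si week 12 replicate 3, with an adjusted p of 0.0291. Its difference from sham was -0.25 ± 0.10 after Si and 0.27 ± 0.10 after gamma.

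A stricter description counts genes whose 6 Si arrays all lay above or all below the 6 gamma arrays, whatever the week. There were 60 such genes above (0.455%) and 30 below (0.228%). Muc13, a cell surface mucin of glandular epithelium, had 5.17, 5.93 and 7.06 after Si and 3.66, 3.95 and 3.67 after gamma at week 4, and 5.36, 5.56 and 4.86 against 4.01, 3.95 and 4.14 at week 12. It was the widest of the named gaps, at 1.76 ± 0.42 or 3.38-fold (adjusted p 0.20, limma). Most of its gamma values lay below the expression filter of log2 4.04, so this fold was taken near the floor. Cdcp3, a gene of CUB-domain proteins, had 6.12, 6.67 and 6.80 against 5.14, 4.79 and 4.72 at week 4, and 6.07, 6.71 and 6.00 against 4.57, 4.57 and 4.51 at week 12. Its gamma arrays were low and close together, and the difference was 1.68 ± 0.37 or 3.20-fold (adjusted p 0.20). Sham arrays spread over both levels, from 4.34 to 7.35 for Cdcp3 and from 3.63 to 5.65 for Muc13. For Muc13, Si replicates 2 and 3 of week 4 lay above every sham array; the other 4 Si arrays and all gamma arrays were within the sham range.

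Akr1b8, an aldo-keto reductase that detoxifies lipid aldehydes, ran from 6.65 to 7.23 after Si and from 5.96 to 6.52 after gamma, a difference of 0.64 ± 0.14. Kcnk13, a tandem-pore potassium channel, ran from 4.33 to 4.74 against 3.90 to 4.26, a difference of 0.44 ± 0.09. Its gamma range spanned the expression filter of log2 4.04. Lower in all 6 Si arrays were P3h2, a collagen prolyl hydroxylase, at -0.42 ± 0.10, and Rc3h1, which encodes Roquin, a protein that marks inflammatory messages for decay, at -0.29 ± 0.07. Rc3h1 ran from 8.50 to 8.77 after Si and from 8.88 to 9.06 after gamma. Of the other named genes, Mlkl, the executioner of necroptosis, was at 0.45 ± 0.10. Zbtb16, a glucocorticoid-induced transcription factor, was at -0.89 ± 0.21, Fgf1 at -0.44 ± 0.11, Dbndd2 at -0.49 ± 0.12, Zfp273 at -0.34 ± 0.08 and Nfya, a subunit of the CCAAT-binding factor, at -0.27 ± 0.07. None of these passed the adjusted test in limma.

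The gene lists below are described by their counts and medians, beside the same over all genes tested, for which 49.6% of differences lay above 0 and the median was -0.0017 (51.9% at week 4 and 48.4% at week 12). Widest on the higher side was the list of interferon response genes. Type I interferons are cytokines released after viral or self nucleic acids are sensed; signals from their receptors turn on antiviral genes through a promoter motif, the interferon-stimulated response element. Of 31 tested members, 30 lay higher after Si than after gamma, 21 of them at an unadjusted p under 0.05, where all genes gave 6.1%, and 0 lower. The median difference was 0.43 log2, and 0 members passed the adjusted test.

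The interferon list was also taken by week; its change between the weeks was not tested as such. At week 12, all 31 members lay higher, 22 at the unadjusted threshold (2.41% of all genes), with a median of 0.60, and 23 had all 3 Si arrays above all 3 gamma arrays (5.14% of all genes). At week 4 26 of 31 lay higher and 2 reached the threshold (3.95% of all genes), with a median of 0.26. Single arrays carried part of this. The week 4 count was 8 without gamma replicate 2, 4 without Si replicate 1, 5 without Si replicate 2 and 1 without any of the other 3 arrays in turn. The week 12 count was 10 without Si replicate 1, with a median of 0.41. With each array left out in turn, the week 12 median ran from 0.41 to 0.68 and the week 4 median from 0.04 to 0.36. The pooled count was 12 without Si week 4 replicate 3, and the week 4 median was then 0.04. That Si array was also the only one of its arm with a high lymph node score. Without the 4 arrays of high lymph node score, chosen after the data were seen, the week 4 median was -0.14 and the pooled median 0.19. At week 4 that choice left gamma replicate 2 alone against Si replicates 1 and 2. Of the gamma arrays of both weeks, gamma week 4 replicate 2 had the highest Stat2 (7.33) and Iigp1 (8.16). At week 12 that choice left out 1 gamma array and no Si array, and the median was 0.54. With 4 covariates for lymphocyte, muscle, epithelial and brown fat genes, the pooled median was 0.48 and the week 12 median 0.64. The part of lymph node RNA at week 4 was not tested by itself.

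**Figure D2:**
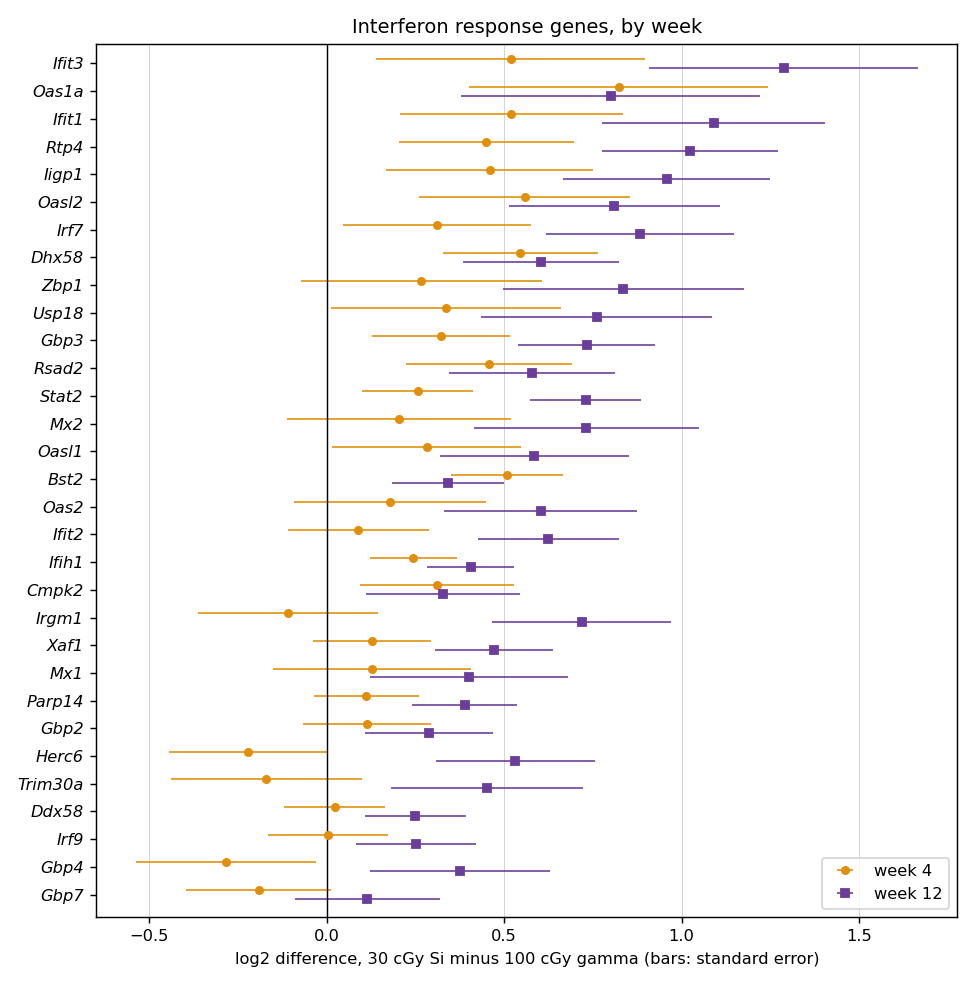
Log2 difference of 30 cGy Si minus 100 cGy gamma for the 31 tested interferon response genes at week 4 (circles) and week 12 (squares), with bars for the standard error. All 31 squares lie above 0, with a median of 0.60, and 26 circles do, with a median of 0.26.

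Among the sensors and signal carriers, Stat2, a subunit of the interferon-activated factor, had 7.76, 7.56 and 7.57 in the Si arrays of week 12 and 6.89, 6.94 and 6.86 in the gamma arrays. These did not overlap, and the sham arrays of week 12 lay between 6.83 and 7.07. The week 12 difference was 0.73 ± 0.16 (adjusted p 0.50, limma), and at week 4 it was 0.26 ± 0.16 with overlapping arrays, where gamma replicate 2 was high at 7.33. Dhx58, a helicase of the RIG-I family, was at 0.58 ± 0.15 over both weeks and higher in all 6 Si arrays, and Irf7, the factor that amplifies the response, was at 0.88 ± 0.26 at week 12.

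Among the effectors, Ifit3, which binds foreign RNA together with Ifit1, had 8.58, 7.52 and 7.93 after Si at week 12 and 6.40, 7.13 and 6.64 after gamma. All Si arrays were higher; 1 sham array, at 7.57, lay within the range of Si. The difference was 1.29 ± 0.38, a 2.44-fold higher level. Ifit1 had 7.03, 6.00 and 6.71 against 5.09, 5.94 and 5.44, again apart, by 1.09 ± 0.31. At week 4 it had 5.47, 5.47 and 6.47 against 5.08, 5.46 and 5.31, where Si replicates 1 and 2 lay just above the highest gamma array and replicate 3 stood clear of it. Rtp4, an interferon-induced chaperone of receptors, differed by 1.02 ± 0.25 at week 12 and Iigp1, a GTPase against intracellular pathogens, by 0.96 ± 0.29. Oas1a, which makes the second messenger that activates RNase L, differed by 0.81 ± 0.30 over both weeks, with week 12 arrays that overlapped. Separated in both weeks were 4 members (1.09% of all genes higher in this way): Ifit1, Dhx58, Bst2 and Ifih1, named after their values were seen.

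The promoters of the interferon list were searched for the letters of the interferon-stimulated response element, and those of the sterol list for the sterol regulatory element. For the first, the letters GAAA, any 2 bases and GAAA again, on either strand and with overlaps allowed, were looked for in the 250 bases before the gene start in RefSeq promoters of GRCm38.p6. Of the 21 tested members with such a window, 11 held a match (52.4%), against 319 of 10392 tested genes (3.07%). The windows of 4 members the values above turn on are shown in part, 5′ to 3′ along the gene's strand, with the match in capitals. The match of Ifit1, Ifit3 and Stat2 is on the other strand, so it reads TTTC, 2 bases and TTTC, and Oas1a has overlapping matches on its own strand.
Ifit1, chr19:34640755-34640843, plus strand: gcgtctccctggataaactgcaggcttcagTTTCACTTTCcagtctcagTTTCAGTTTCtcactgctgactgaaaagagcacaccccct
Ifit3, chr19:34583343-34583446, plus strand: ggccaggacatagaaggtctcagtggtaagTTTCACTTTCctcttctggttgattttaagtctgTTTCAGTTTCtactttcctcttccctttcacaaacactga
Oas1a, chr5:120907526-120907575, minus strand: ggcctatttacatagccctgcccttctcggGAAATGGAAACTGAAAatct
Stat2, chr10:128270248-128270315, plus strand: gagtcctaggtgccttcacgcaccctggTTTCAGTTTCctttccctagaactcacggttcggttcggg
The matches lie 104 to 76 bases before the start in Ifit1, 156 to 113 in Ifit3, 20 to 5 in Oas1a and 222 to 213 in Stat2. A match is a description of the letters and shows no binding.

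Set beside sham, interferon members had a median of 0.32 after Si over both weeks, with 18 of 31 higher at the unadjusted threshold (5.35% of all genes), and -0.01 after gamma, with 0 higher (2.74% of all genes) and 0 lower. At week 12 alone the medians were 0.43 and -0.08. Both comparisons use the same sham arrays. Genes of the antigen presentation list differed among themselves. The immunoproteasome subunits Psmb8, at 0.38 ± 0.13, and Psmb9, at 0.31 ± 0.14, and the peptide transporter Tap2, at 0.33 ± 0.13, were higher after Si. The class II genes H2-Aa, at -0.56 ± 0.23, H2-Ab1, at -0.50 ± 0.23, and Cd74, their invariant chain, at -0.53 ± 0.23, were lower. These counts of 3 and 3 (6.1% and 5.31% of all genes) moved with single arrays: the lower count was 0 without Si week 4 replicate 1, 1 without gamma week 4 replicate 1 or 3, Si week 4 replicate 2 or Si week 12 replicate 2, and 5 without Si week 4 replicate 3, where the higher count was 1. H2-Aa ran from 8.33 to 8.64 in the Si arrays of week 4 without much lymph node RNA and was 9.64 in replicate 3, against 9.33 to 9.80 after gamma. Its level moved with the lymph node score in this arm, and the part of lymph node cells in the class II values was not tested.

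Sterol synthesis genes lay higher after Si in every member tested. Cells make cholesterol from acetyl-CoA through mevalonate, squalene and lanosterol, under the control of SREBP2, which is released when membrane sterol is low. All 20 members were above 0, 10 at an unadjusted p under 0.05 (6.1% of all genes), with a median of 0.39. In 6 of them the Si arrays were above the gamma arrays in both weeks, where all genes gave 1.09%: Cyp51, Sqle, Msmo1, Fdps, Nsdhl and Ebp. Medians were 0.33 at week 4 and 0.53 at week 12. No single array moved the pooled count by over 1.5 times, and it ran from 8 to 12. The week 12 count of 9 was 5 without Si replicate 3, and the week 4 count of 4 was 2 without gamma replicate 2. With 4 covariates for lymphocyte, muscle, epithelial and brown fat genes, the pooled median was 0.26.

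**Figure D3:**
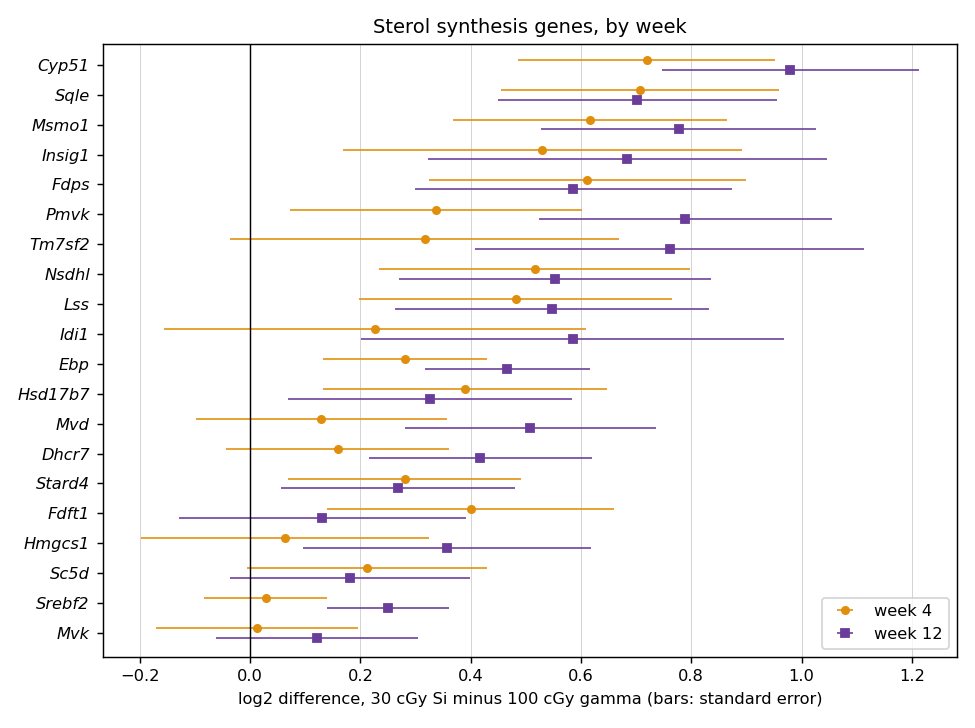
Log2 difference of 30 cGy Si minus 100 cGy gamma for the 20 tested sterol synthesis genes at week 4 (circles) and week 12 (squares), with bars for the standard error. All values lie above 0, with medians of 0.33 and 0.53, and Cyp51 is highest at both times.

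Cyp51, the lanosterol demethylase, had 6.31, 6.65 and 6.55 after Si and 5.79, 5.84 and 5.73 after gamma at week 4, and 7.35, 7.65 and 8.22 against 7.02, 6.69 and 6.58 at week 12. Si arrays were higher in both weeks, and both treatments were higher at week 12 than at week 4. The pooled difference was 0.85 ± 0.16, or 1.80-fold (adjusted p 0.0891, limma). Sqle, squalene epoxidase and a rate-limiting step, had 6.66, 7.10 and 6.78 against 6.27, 6.21 and 5.94 at week 4, and 7.21, 7.45 and 7.67 against 6.46, 6.59 and 7.17 at week 12. These did not overlap within either week, and the difference was 0.70 ± 0.18 (adjusted p 0.21). Msmo1, the methylsterol monooxygenase that acts after Cyp51, differed by 0.70 ± 0.18, and Insig1, which holds SREBP2 back and is its target, by 0.61 ± 0.26. Early in the path, Pmvk, the phosphomevalonate kinase, differed by 0.79 ± 0.27 at week 12, and Fdps, which makes farnesyl diphosphate, by 0.60 ± 0.20 over both weeks. The sterol regulatory element TCACNCCAC, searched on either strand in the same promoter windows, was in 1 of 16 members with a window (6.25%), Hmgcs1, against 1.26% of all tested genes with one. Beside the shared sham arrays, the list had a median of 0.30 after Si, with 10 of 20 higher (5.35% of all genes), and -0.07 after gamma, with 0 higher (2.74%).

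Fatty acid synthesis genes lay mostly on the same side, with 23 of 25 above 0 and a median of 0.32, but 1 reached the unadjusted threshold (6.1% of all genes), Pnpla3 at 0.44 ± 0.19, named after its value was seen. That count was 3 without gamma week 12 replicate 1 and 4 without Si week 12 replicate 1. For Me1, the malic enzyme that supplies NADPH, the difference was 0.59 ± 0.36. For Acly, the source of acetyl-CoA in the cytosol, it was 0.55 ± 0.43. These genes spread widely within groups, and with the tissue covariates the list median was 0.09. The white adipocyte markers had a median of -0.02, with 8 of 19 above 0.

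Oxidative phosphorylation genes, which encode the mitochondrial respiratory chain and ATP synthase, were above 0 in 34 of 35 members, 18 at the unadjusted threshold (6.1% of all genes), with a median of 0.26. At week 4 the median was 0.26 and 7 members reached the threshold (3.95% of all genes), 1 without gamma replicate 3, 2 without Si replicate 2 and 4 without Si replicate 3. Without the arrays of high lymph node score, which left gamma replicate 2 alone at week 4, the week 4 median was 0.35. At week 12 the median was 0.24, and 0.13 without Si replicate 3. There 2 members reached the threshold (2.41% of all genes), 6 without Si replicate 1 or 2, 1 without gamma replicate 3, and 0 without gamma replicate 1 or Si replicate 3. In 8 members the arrays were separated in both weeks (1.09% of all genes). The pooled count was 6 without Si week 12 replicate 3, 11 without Si week 4 replicate 2, 11 without gamma week 4 replicate 2 and 8 with the tissue covariates, where the median was 0.13. The brown adipocyte list, a cell type rich in mitochondria, had a median of 0.22 with 9 of 11 above 0. Of 5 brown adipocyte markers, 3 lay above the expression filter, while Ucp1 (mean 3.27 over the 12 arrays) and Elovl3 (3.79) did not. The brown fat covariate was the mean of the brown adipocyte list, fitted together with those for lymphocyte, muscle and epithelial genes. It can take up a difference in mitochondrial genes whatever its source. The part of brown adipocytes in these values was therefore not tested by itself. Of the respiratory complexes, Sdhd, the membrane anchor of complex II, had 9.28, 9.41 and 9.26 after Si and 8.98, 8.78 and 8.54 after gamma at week 4, and 9.18, 9.23 and 9.50 against 9.02, 8.95 and 9.01 at week 12. Every Si array lay above every gamma array, by 0.43 ± 0.13 (adjusted p 0.25, limma). Ndufb5 of complex I, also above in all 6, differed by 0.39 ± 0.14, Cox5a of complex IV by 0.43 ± 0.16 and Atp5o of ATP synthase by 0.41 ± 0.12. Sham arrays covered both ranges, for example 8.44 to 9.56 for Sdhd at week 12. Beside sham, the list had medians of 0.09 after Si and -0.15 after gamma.

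**Figure D4:**
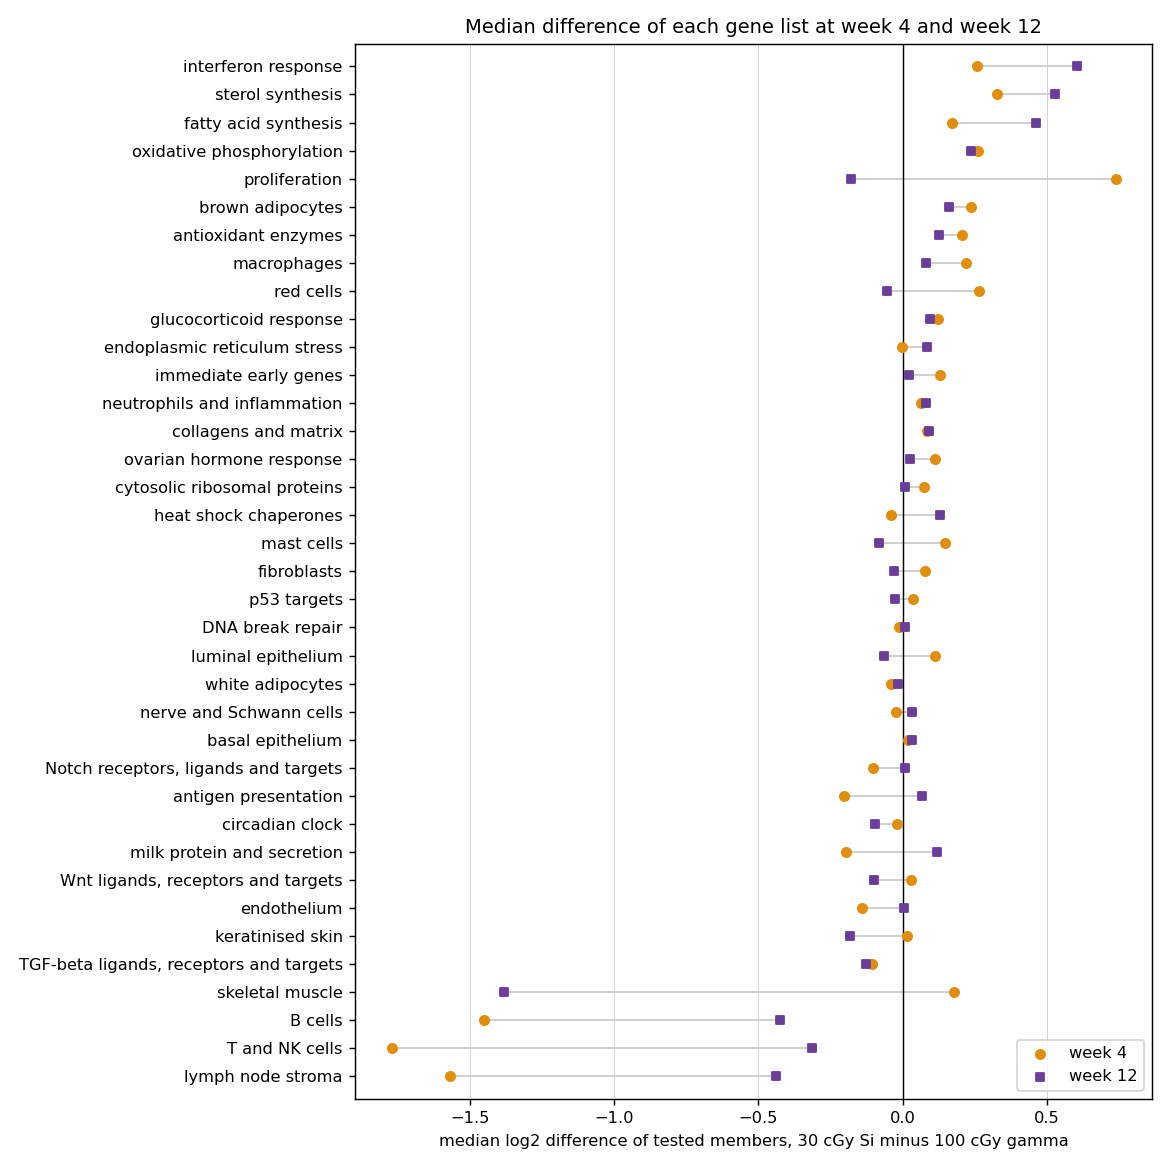
Median log2 difference of 30 cGy Si minus 100 cGy gamma over the tested members of 37 gene lists at week 4 (circles) and week 12 (squares). Interferon, sterol and oxidative phosphorylation lists lie above 0 at both times, proliferation at week 4 alone (0.74 and -0.18), and lymphoid lists lie lowest at week 4. Without gamma week 12 replicate 2, the week 12 median of proliferation was 0.13.

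Antioxidant enzymes had a median of 0.18, with 19 of 24 above 0, 5 at the unadjusted threshold and higher (6.1% of all genes) and 1 lower. Higher were Gsta3, at 0.48 ± 0.14, Hmox1, heme oxygenase, at 0.40 ± 0.16, the peroxidase Prdx1 at 0.31 ± 0.10, Gpx4, which reduces lipid peroxides, at 0.30 ± 0.13, and Srxn1, sulfiredoxin, at 0.30 ± 0.11. Gclc, the catalytic subunit for glutathione synthesis, was lower at -0.30 ± 0.14. The count of 5 ran from 3 without gamma week 4 replicate 3 to 10 without Si week 4 replicate 3, and it was 8 without gamma week 4 replicate 1 or Si week 12 replicate 2.

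Cell cycle genes lay higher after Si at week 4 and on both sides of 0 at week 12. Of 23 tested members of the proliferation list, all 23 lay higher after Si at week 4, with a median of 0.74, and in 19 the 3 Si arrays were above the 3 gamma arrays (8.75% of all genes). At the unadjusted threshold there were 9 (3.95% of all genes). At week 12, 7 of 23 lay higher, the median was -0.18, and 0 members were separated in either direction or at the threshold. The sign of that median hung on single arrays: it was 0.13 without gamma replicate 2 and -0.40 without gamma replicate 1. The change of the list between weeks was not tested as such; of its members, the week 12 minus week 4 value was -0.99 ± 0.56 for Bub1, -1.18 ± 0.62 for Aurkb and -1.25 ± 0.74 for Mki67, each with an adjusted p of 1.00 in limma. The week 4 count was 1 without Si replicate 2, 4 without gamma replicate 1 and 5 without gamma replicate 3, with medians between 0.62 and 0.77 over the arrays left out in turn.

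Mki67, the proliferation marker Ki-67, had 6.41, 7.00 and 6.79 after Si and 5.66, 5.98 and 5.69 after gamma at week 4. At week 12 it had 5.78, 5.34 and 6.87 against 5.48, 7.09 and 6.28. The groups were apart at week 4, while at week 12 their ranges overlapped each other and that of sham, which ran from 5.76 to 7.36. Bub1, a kinase of the spindle checkpoint, had 4.80, 5.17 and 5.10 against 4.13, 3.91 and 4.03 at week 4, a difference of 1.00 ± 0.40. Its gamma values there lay close to the expression filter of log2 4.04. Aurkb, a kinase of chromosome segregation, differed by 0.98 ± 0.44 and Rrm2, the ribonucleotide reductase subunit made in S phase, by 0.97 ± 0.46. Against the sham arrays of week 4, which both treatments share, the list had a median of 0.91 after Si, with 17 of 23 higher at the unadjusted threshold (6.1% of all genes), and of 0.23 after gamma, with 0 higher (3.66%). Sham week 4 replicate 1, a library that stands apart in several scores, had the lowest proliferation score of the 19 arrays of the 3 treatments at these weeks, -0.59.

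**Figure D5:**
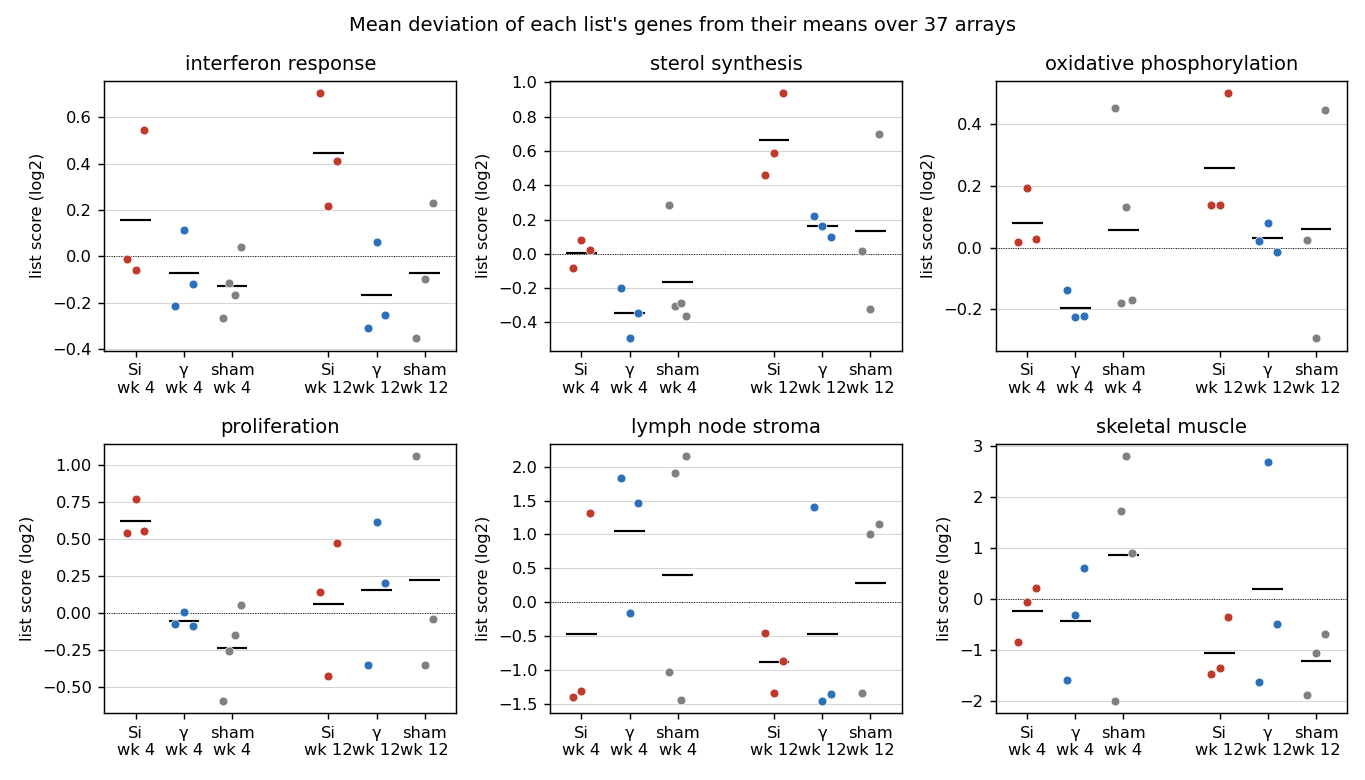
Score of 6 gene lists in each array of 30 cGy Si (red), 100 cGy gamma (blue) and sham (grey) at weeks 4 and 12, as the mean log2 deviation of the tested members from their means over 37 arrays, with a bar at each group's mean. Proliferation scores of Si at week 4 (0.54, 0.77 and 0.55) lie above those of gamma (-0.07, 0.00 and -0.09), and lymph node and muscle scores vary between arrays of 1 group by more than 2.

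DNA break repair genes as a list had a median of -0.01, with 11 of 23 above 0. At the unadjusted threshold 5 were higher (6.1% of all genes) and 0 lower. These were Brca2, which loads the recombinase on broken DNA, at 0.33 ± 0.10, Bard1, the partner of the BRCA1 protein, at 0.28 ± 0.11, the recombination motor Rad54l at 0.31 ± 0.13, the checkpoint kinase Chek1 at 0.45 ± 0.21, and Nbn, part of the break-sensing complex, at 0.18 ± 0.08. Brca2 had 5.95, 6.03 and 5.73 after Si and 5.51, 5.39 and 5.61 after gamma at week 4, which did not overlap, and 5.68, 5.77 and 5.65 against 5.16, 5.66 and 5.50 at week 12, where a gamma array lay just above the lowest Si array. Several of these genes are known to be expressed in S phase. The count of 5 was 2 without gamma week 4 replicate 3 or Si week 12 replicate 3, and 3 without Si week 4 replicate 2 or gamma week 12 replicate 1 or 2.

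The p53 targets, the usual readout of DNA damage, did not lean to either side, with 12 of 25 above 0, a median of -0.0029, 1 higher and 1 lower at the unadjusted threshold (6.1% and 5.31% of all genes). Cdkn1a, the cell cycle inhibitor p21, had 8.73, 8.62 and 9.24 after Si and 8.61, 8.90 and 8.53 after gamma at week 4, and 8.40, 8.36 and 8.03 against 8.25, 8.08 and 8.11 at week 12. The groups overlapped in both weeks, with a difference of 0.15 ± 0.22. The differences of the others followed were -0.05 ± 0.08 for Mdm2, which degrades p53, -0.06 ± 0.11 for Ccng1, 0.22 ± 0.21 for Phlda3 and -0.07 ± 0.15 for Eda2r. Without the arrays of high lymph node score the sign of Cdkn1a turned, to -0.028, that of Ccng1 to 0.028 and that of Eda2r to 0.052. Of the members at the threshold, the death receptor gene Fas was lower after Si at -0.37 ± 0.10, and Tnfrsf10b, the TRAIL receptor gene, higher at 0.29 ± 0.11. Fas lay at -0.42 ± 0.10 against sham after Si and at -0.05 ± 0.10 after gamma, with shared sham arrays.

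Of 24 endothelial genes, 7 lay above 0 after Si over both weeks, with a median of -0.08, and -0.02 without gamma week 12 replicate 1. The median was -0.14 at week 4, with 4 of 24 above 0, and 0.0057 at week 12, with 12 of 24 above 0 (0.09 without gamma replicate 1). At the unadjusted threshold 6 were lower (5.31% of all genes) and 1 higher (6.1%), and the count of 6 was 3 without gamma week 4 replicate 2 or without Si week 4 replicate 1. Sox18, a transcription factor of vessel and lymphatic development, had 7.80, 7.96 and 7.48 after Si and 8.25, 8.36 and 8.24 after gamma at week 4, and 7.71, 7.47 and 7.97 against 8.20, 8.03 and 7.87 at week 12. It was apart at week 4, and at week 12 Si replicate 3 reached into the gamma range. The difference was -0.43 ± 0.11 (adjusted p 0.21, limma). Ephb4, the receptor of venous endothelium, was at -0.29 ± 0.07 and the list's 1 member with Si arrays below gamma arrays in both weeks (0.858% of all genes); within a week there were 6 such members at week 4 (6.76%) and 3 at week 12 (5.13%). Robo4 was at -0.28 ± 0.10, Apln, a tip cell ligand, at -0.35 ± 0.16, Tinagl1 at -0.22 ± 0.09 and Ace at -0.20 ± 0.09. Egfl7 was higher, at 0.24 ± 0.10, mostly from week 12 (0.53 ± 0.15). In each treatment against the shared sham, Ephb4 was at -0.04 ± 0.07 after Si and 0.25 ± 0.07 after gamma.

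Among TGF-beta ligands, receptors and targets, a pathway known to be activated by ionizing radiation in this gland, 6 of 25 lay above 0 with a median of -0.09. At the unadjusted threshold 1 was higher (6.1% of all genes), Ccn1, a matrix signalling protein, at 0.78 ± 0.30, and 3 lower (5.31%): the decoy receptor Bambi at -0.36 ± 0.13, the differentiation inhibitor Id2 at -0.31 ± 0.14 and Smad4 at -0.15 ± 0.06. The count of 3 was 1 without Si week 12 replicate 3 and 5 without Si week 12 replicate 1. In the collagen and matrix list 17 of 25 were above 0, with a median of 0.07; Lox, which crosslinks collagen, was lower at -0.35 ± 0.13, and so was the proteoglycan gene Bgn at -0.27 ± 0.08. Notch genes had a median of -0.04 and Wnt genes of -0.07; Nrarp, a Notch target, was higher at week 12 (0.73 ± 0.25).

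Immediate early genes, which respond within minutes to growth factors or handling of tissue, had a median of 0.07 with 17 of 24 above 0, and 3 reached the threshold and were higher (6.1% of all genes): Egr2, Nr4a1 and Fosl2. Egr2 had 8.29, 8.20 and 8.25 after Si and 6.93, 6.86 and 6.37 after gamma at week 4, and 8.25, 7.53 and 8.21 against 6.07, 7.46 and 7.41 at week 12. All 6 Si arrays lay above all 6 gamma arrays, by 1.27 ± 0.37 or 2.41-fold (adjusted p 0.245, limma), and sham ran from 5.46 to 7.89. Nr4a1 differed by 0.77 ± 0.29 and Fosl2 by 0.33 ± 0.14. The count of 3 was 1 without Si week 4 replicate 3. Of the glucocorticoid response genes, Sgk1, a kinase of ion transport, had 8.24, 8.36 and 8.20 against 7.45, 7.74 and 7.24 at week 4, and was 0.57 ± 0.15 higher over both weeks. Errfi1 was at 0.46 ± 0.22, Per1 at 0.35 ± 0.17 and Mt1 at 0.26 ± 0.12, while Zbtb16 was lower (above), so that genes of this list lay on both sides with a median of 0.08. The count of 4 higher genes (6.1% of all genes) was 1 without gamma week 4 replicate 3 or gamma week 12 replicate 2, and 2 without gamma week 4 replicate 1, Si week 4 replicate 1 or 3, or Si week 12 replicate 2. Of the clock genes, Bhlhe40 was at -0.57 ± 0.15 and Nr1d2 at -0.39 ± 0.11, while 1 member was higher at the unadjusted threshold (6.1% of all genes). That higher count was 3 without gamma week 4 replicate 2. The mean clock score was -0.11 after Si and -0.02 after gamma at week 4, and -0.12 and -0.07 at week 12, with overlapping arrays. The time of day of collection and the time from death to freezing were not analysed here, and their part was not tested.

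The epithelial lists showed no lean: 12 of 26 luminal members lay above 0, with a median of -0.02, and 9 of 19 basal members, with a median of -0.04, and 0 of either reached the unadjusted threshold. In the ovarian hormone list, 7 of 13 lay above 0. The cytokine feedback genes Cish, at 0.48 ± 0.23, and Socs2, at 0.39 ± 0.16, were higher after Si (6.1% of all genes), and Tnfsf11, which encodes RANKL, the progesterone-induced signal to stem cells, was lower at -0.44 ± 0.21 (5.31%). Macrophage genes had a median of 0.15, with 17 of 21 above 0. Their median was 0.03 without Si week 4 replicate 3, the Si array with the highest macrophage score (0.63), and -0.03 without the arrays of high lymph node score.

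Lymphoid genes lay lower after Si over both weeks, and the lymph node score moved with them: its 8 genes all lay below 0, with a median of -1.004. All 18 B cell genes lay below 0 with a median of -0.87, as did 18 of 19 T and NK cell genes, with a median of -0.96. These medians were -0.51 without gamma week 12 replicate 1 for B cells and -0.60 without gamma week 4 replicate 3 for T and NK cells. At week 12 they were -0.42 and -0.32, and they turned to 0.38 and 0.14 without gamma replicate 1. With the tissue covariates the lymph node median turned to 0.11. The lymphocyte covariate was built from the T, NK and B cell genes, which moved with the lymph node score. That fit can therefore say nothing on lymph node genes. At week 4, 12 of 19 T and NK genes were lower at the unadjusted threshold (4.04% of all genes), with a median of -1.77, but 0 were separated between the groups. That count was 0 without gamma replicate 3, 0 without Si replicate 1, 0 without Si replicate 2 and 7 without gamma replicate 1. Cd3g, part of the T cell antigen receptor, had 3.81, 4.53 and 8.08 after Si and 8.61, 7.21 and 9.88 after gamma at week 4, and 6.30, 4.70 and 5.12 against 7.76, 4.98 and 5.05 at week 12. Glycam1, made by the high endothelial venules of lymph nodes and also by milk-secreting epithelium, had 4.11, 4.90 and 11.13 against 11.93, 8.02 and 11.13 at week 4. Its levels spanned a wide range within each treatment, and sham week 4 likewise ran from 4.44 to 12.15. With the tissue covariates the sign of Glycam1 turned, to 0.36, under the same limit. Skeletal muscle genes had a median of -1.38 at week 12, -0.03 without gamma replicate 2, the array of high muscle score, and -2.37 without gamma replicate 1.

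At week 12 alone, the 6 genes per direction with the smallest p included, besides Stat2, Nr2f1, Cyp51 and Rtp4, Vsig2 and Rbm28. Vsig2, an immunoglobulin-domain membrane protein of epithelia, had 8.86, 7.45 and 8.65 after Si and 7.04, 6.38 and 6.52 after gamma. All Si arrays were higher, by 1.67 ± 0.37 (adjusted p 0.50, limma), while at week 4 the difference was 0.23 ± 0.37 with overlap. Lower were Fgf1, at -0.63 ± 0.16, Plppr4, at -0.76 ± 0.19, Skida1, at -0.72 ± 0.20, the melatonin receptor gene Mtnr1b, at -0.52 ± 0.14, C9orf72, at -0.46 ± 0.12, and Zc3h10, at -0.32 ± 0.09. Fgf1, a growth factor of adipose and mammary stroma, had 7.02, 6.56 and 6.61 against 7.20, 7.41 and 7.48, which did not overlap.

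Between the weeks, the gene with the smallest p after Scin was Rccd1, a chromatin regulator. It had 4.89, 4.95 and 4.88 after Si and 5.34, 5.34 and 5.36 after gamma at week 4, and a mean of 5.17 (SD 0.15) against 4.80 (SD 0.20) at week 12. The Si arrays were lowest at week 4 and highest at week 12, with no overlap in either week, and the difference changed by 0.80 ± 0.19 (adjusted p 1.00, limma). Others that turned were Pdgfb, a ligand for pericytes, from -0.31 ± 0.10 to 0.20 ± 0.10, Jmjd6, from -0.22 ± 0.11 to 0.31 ± 0.11, and Ddx24, a helicase, from -0.25 ± 0.09 to 0.22 ± 0.09. Anxa4, a membrane-binding annexin, went the other way, from 0.35 ± 0.11 to -0.17 ± 0.11. None passed the adjusted test.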

How the data were processed

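Total RNA of mouse mammary gland was hybridised to 1 Affymetrix array per sample. The deposited values are log2 expression; the submitters' processing notes name RMA and oligo, with versions not given in the sources used here. No further normalisation was applied. The table held 35556 probe sets without missing values. The platform annotation gave 1 symbol for 21218, several for 1881 and listed none for 12457, which were left out. Of each of 18820 genes the probe set with the highest mean over 37 arrays was used, and 13174 genes with a mean above the 30th percentile (log2 4.04) were tested.

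A limma model (version 3.58.1, R 4.3.3) with a mean for each of 12 groups was fitted to all 37 arrays (25 residual and 3.40 prior degrees of freedom). The difference of 30 cGy Si and 100 cGy gamma was taken within week 4, within week 12 and as the mean of both, and their change between weeks was tested. All tests were two-sided; p-values were adjusted by Benjamini-Hochberg over all 13174 genes. A gene was called where limma's adjusted p was under 0.05. Values after ± are standard errors of a log2 difference. The number of arrays limits the precision. The model was tested on simulated data.

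The groups compared, the genes followed and 37 gene lists (736 tested entries) were chosen with earlier results of these data known, so lists are described by counts and medians, with no test. Genes were named by smallest p (10 per direction over both weeks, 6 per direction for each week and for the change between weeks), by largest difference within a list (4 per list), and Cdkn1a, Mdm2, Ccng1, Phlda3 and Eda2r always; predicted genes, small RNA genes, pseudogenes, and olfactory, vomeronasal and immune receptor segment genes were not named. Genes named to spell out a count of list members were chosen after their values were seen. Separated means that every array of a treatment lay beyond every array of the other. Settings varied were the expression filter (none, or the 50th percentile), averaging of probe sets within genes, quantile normalization, trend and robust settings, array weights, a replicate block, only the 12 arrays compared, 4 tissue covariates and each array left out in turn. All probe sets and a fit without 4 arrays of high lymph node score were added after the data were seen. Promoter windows and gene names came from RefSeq (GRCm38.p6). Samples were not treated as paired by replicate number. Residual correlations of same-numbered Si and gamma arrays ran from -0.23 to 0.31. At week 4, Si replicates 2 and 3 correlated best with the gamma array of their own number, and at week 12 no replicate did. Whether the numbers pair the samples is therefore not settled.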

Additional observations from a re-analysis of the deposited data

Results flagged for a closer look

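In groups of 4 to 10 arrays, an array was picked out when its gap to the nearest other array was a large share of the group's range (Dixon's criterion at 95%). The 6 arrays of a treatment over both weeks, and the 4 sham arrays of week 4 for list scores, gave 334 groups with 23 picked out, where chance gives about 1 in 20. Groups of 3 arrays were not examined.

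Of the list scores, 30 cGy Si week 4 replicate 3 was highest of its treatment for T and NK cells (0.83), lymph node stroma (1.31), macrophages (0.63) and immediate early genes (0.29), and lowest for endothelium (-0.20). In 100 cGy gamma, week 12 replicate 1 was lowest for fibroblasts (-0.51) and macrophages (-0.32). In 30 cGy Si, week 12 replicate 3 was highest for oxidative phosphorylation (0.50). Sham week 4 replicate 1 was lowest of its group for Wnt genes (-0.37), basal epithelium (-0.82) and immediate early genes (-0.76), and highest for sterol synthesis (0.28).

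Of single genes, gamma week 12 replicate 1 had the lowest Bambi (5.42) and Id2 (9.07), and gamma week 12 replicate 2 the highest Bub1 (5.18). Gamma week 4 replicate 2 had the highest Ephb4 (7.80), Iigp1 (8.16) and Stat2 (7.33) and the lowest Reg3g (3.50), and gamma week 4 replicate 1 the lowest Tnfrsf10b (6.20). Si week 12 replicate 2 had the lowest Egr2 (7.53) and Gsta3 (8.64), and Si week 4 replicate 3 the highest Tnfsf11 (4.79).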

How the results depend on the processing

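Counts of called genes were small. Over both weeks and at week 4 several settings changed them, array weights the most. Over both weeks, where 0 genes were called, quantile normalization gave 1 (Nr2f1), array weights 8, the fit of only the arrays compared with week as a block 5, and leaving out each array in turn 0 to 1. At week 4, where 1 was called, no filter gave 2, the filter at the 50th percentile 0, array weights 11, the arrays compared alone 0, all probe sets 0, no arrays of high lymph node score 0, and leaving out each array in turn 0 to 2. At week 12, and for the change between weeks, the count was 0 in all settings run. With the replicate block the counts were 1 over both weeks (Cdcp3) and 2 at week 4 (Scin and Agxt2). Whether replicate numbers pair the samples is not settled. Of 3054 alternative values of single genes, 3019 kept their sign and side of the threshold, 6 were weaker, 19 stronger and 10 turned sign. Scin at week 4 was the 1 result called in the main fit, and all 6 weaker values were its own. For the other results, keeping the side of the threshold meant staying uncalled. Turned without the arrays of high lymph node score were Cdkn1a (-0.028), Ccng1 (0.028), Eda2r (0.052) and, at week 4, Ifit3 (-0.27). For gamma at week 4, that fit rested on replicate 2 alone. Turned with the 4 tissue covariates were Phlda3 (-0.016), Cd79a (0.066) and Glycam1 at week 4 (0.36). The lymphocyte covariate was built from T, NK and B cell genes, so that fit can say nothing on Cd79a, a B cell gene. Nor can it on Glycam1, since those genes moved with the lymph node score. Ccng1 (0.0065) and Eda2r (0.0045) turned without gamma week 12 replicate 2, and Eda2r (0.0061) without gamma week 4 replicate 1; over each array left out, Ccng1 ran from -0.099 to 0.0065 and Eda2r from -0.18 to 0.0061. The cause was not tested.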
